A study of Homo sapiens with 21 samples.

Results

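The genes described here were 10 genes of the bone morphogenetic protein (BMP) branch of TGFβ signaling, chosen by symbol from the 20111 genes listed for each library, and all 10 were found in every library. They comprised the ligands BMP2 and BMP4, the type I receptor ACVR1, the co-receptor ENG, the secreted antagonist NOG, the inhibitory SMADs SMAD6 and SMAD7, and the target genes ID1, ID2 and ID3. The rule used gene symbols only, but the symbols were chosen with earlier results of these data known. BMP ligands bind type I and type II serine/threonine kinase receptors on the cell surface, and the activated receptors phosphorylate SMAD1, SMAD5 and SMAD9, which enter the nucleus with SMAD4. The ID genes are direct targets of these SMADs and encode helix-loop-helix proteins without a DNA-binding region, which bind E proteins and keep them off DNA. NOG and other antagonists trap the ligands outside the cell, and SMAD6 and SMAD7 are themselves induced by the pathway and dampen it.

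The cells were PC-9, an established human lung cancer line with an in-frame deletion in exon 19 of EGFR, and all groups derive from it. EGFR-low and EGFR-high cells were obtained by 6 rounds of sorting on EGFR protein, each keeping the lowest or the highest 5 to 10% of cells, so they are sorted populations and not clones. In the untreated experiment, parental, EGFR-low and EGFR-high cells were harvested 24 h after seeding without treatment. In the vorinostat experiment, EGFR-low and EGFR-high cells received DMSO, the solvent control, or 1 µM SAHA for 72 h. SAHA, also called vorinostat, inhibits histone deacetylases. There were 7 groups of 3 libraries, 9 untreated and 12 in the vorinostat experiment. The parental cells were unsorted, and the vorinostat experiment had none. The values are FPKM, fragment counts scaled by transcript length and by the fragments of the library.

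EGFR, the gene behind the sort, gives a check of the labels. It was at 60.2, 26.5 and 60.6 FPKM in the 3 untreated EGFR-low libraries and at 269, 161 and 243 FPKM in the EGFR-high ones (log2 fold change -2.23 ± 0.40, SE, n = 3 against 3, limma adjusted p = 0.0110). Without replicate 3 of the untreated EGFR-high cells the adjusted p was 0.0520. In the vorinostat experiment EGFR lay between 16.1 and 43.3 FPKM in the 6 EGFR-low libraries and between 83.3 and 207 FPKM in the 6 EGFR-high libraries, without overlap. The epithelial markers EPCAM, CDH1, KRT7, KRT8, KRT18 and KRT19 were high in all 21 libraries, with a lowest value of 42.2 FPKM.

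Several libraries stood apart, and this touches every result of the vorinostat experiment. NKX2-1, a transcription factor of the lung lineage, was at 24.1 to 51.1 FPKM in the 6 libraries labelled EGFR-low of that experiment and at no more than 0.0690 FPKM in the untreated EGFR-low libraries. The libraries that bear the name EGFR-low in both experiments therefore differed in a gene that was near 0 in one and abundant in the other. Among 80 genes that were under 0.3 FPKM in replicates 2 and 3 of EGFR-low SAHA and at 10 FPKM or more in replicates 2 and 3 of EGFR-high SAHA, replicate 1 of EGFR-low DMSO held a median of 21.1% of the EGFR-high level, and the other EGFR-low libraries of the experiment held 0.265 to 0.371%. NOG was 1 of these 80 genes. Among 75 genes with the opposite pattern, replicate 3 of EGFR-high DMSO held a median of 25.3% of the EGFR-low level and replicate 1 of EGFR-high SAHA held 2.88%, against 0.133 to 0.200% in the other EGFR-high libraries. The 80 genes stood at 44.6 to 63.6% in the untreated EGFR-low libraries, and the 75 genes at 0% in each of them. The part of these differences in the results was not tested. Fold changes of the members between the DMSO groups are therefore given with and without replicate 1 of EGFR-low DMSO and replicate 3 of EGFR-high DMSO, a choice made after the data were seen. Such a difference between libraries can lie in the share of cells of a kind, in the RNA of each cell or in steps after harvest. These were not tested and cannot be told apart in bulk RNA.

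The 3 ID genes had higher means in the EGFR-low than in the EGFR-high groups of the vorinostat experiment. SMAD6 was among the members that moved least. The sequence before the start site is shown for the 3 ID genes and for SMAD6. Each is the 250 bases before the RefSeq start site in GRCh38.p14, 5′ to 3′ on the strand of the gene, and capitals mark GTCT on either strand, the short element that SMAD proteins bind. ID1 lies on the plus strand at chr20:31605039-31605288, ID2 on the plus strand at chr2:8681806-8682055, ID3 on the minus strand at chr1:23559502-23559751 and SMAD6 on the plus strand at chr15:66701986-66702235.
ID1: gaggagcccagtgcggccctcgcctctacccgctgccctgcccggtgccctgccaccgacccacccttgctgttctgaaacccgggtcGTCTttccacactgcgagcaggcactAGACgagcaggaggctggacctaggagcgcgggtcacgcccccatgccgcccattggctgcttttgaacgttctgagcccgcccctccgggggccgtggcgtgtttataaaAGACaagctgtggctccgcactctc
ID2: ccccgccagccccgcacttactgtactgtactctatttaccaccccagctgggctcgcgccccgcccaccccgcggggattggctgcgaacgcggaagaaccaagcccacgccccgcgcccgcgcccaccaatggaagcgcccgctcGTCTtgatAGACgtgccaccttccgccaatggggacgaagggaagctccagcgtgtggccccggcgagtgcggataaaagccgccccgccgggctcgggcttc
ID3: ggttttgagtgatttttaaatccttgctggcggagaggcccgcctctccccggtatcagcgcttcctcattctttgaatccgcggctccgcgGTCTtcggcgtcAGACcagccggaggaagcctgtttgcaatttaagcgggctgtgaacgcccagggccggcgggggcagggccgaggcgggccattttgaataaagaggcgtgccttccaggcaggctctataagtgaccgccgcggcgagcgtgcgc
SMAD6: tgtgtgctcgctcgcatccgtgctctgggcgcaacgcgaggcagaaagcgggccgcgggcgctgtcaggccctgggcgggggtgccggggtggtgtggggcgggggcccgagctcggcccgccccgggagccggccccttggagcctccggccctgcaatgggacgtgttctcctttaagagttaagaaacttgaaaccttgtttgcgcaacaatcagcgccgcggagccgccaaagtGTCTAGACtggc
GTCT, read on both strands, stood 3 times before ID1 and 2 times before ID2, ID3 and SMAD6, and 84.0% of all 35116 promoter windows of 300 bases hold it. In SMAD6 both copies stand side by side as GTCTAGAC, which 0.202% of all windows hold and no window of another member held. The GC-rich motif GGCGCC, in 19.2% of windows, was in none of the windows of the 3 ID genes. These are matches of letters and not sites shown to be bound.

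**Figure D1:**
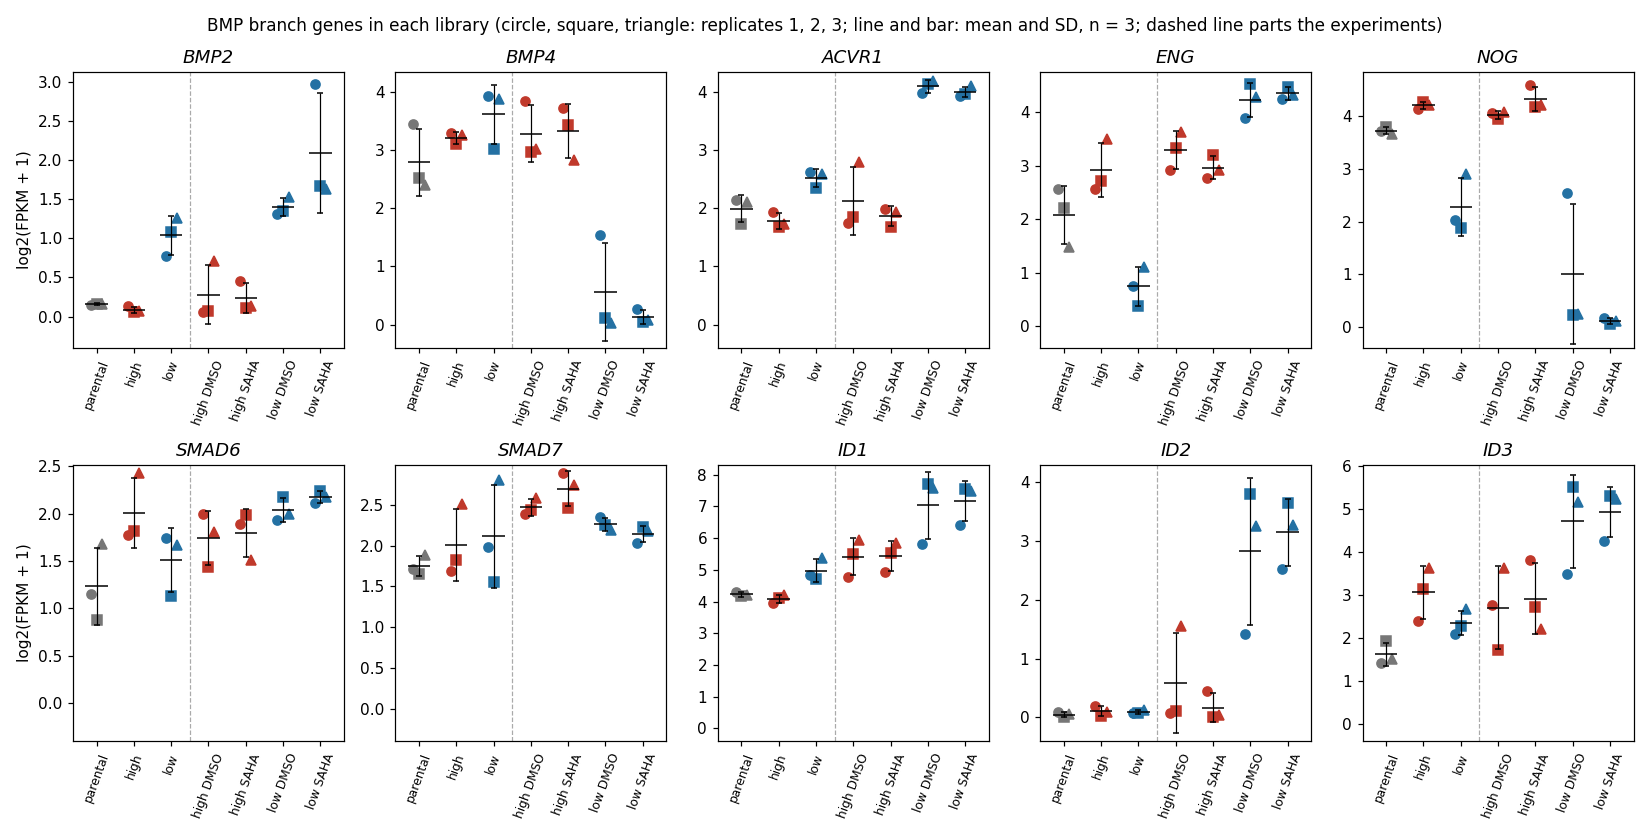
Level of each of the 10 genes, as log2(FPKM + 1), in the 21 libraries by group, with untreated groups left of the dashed line; circles, squares and triangles are replicates 1, 2 and 3, and lines and bars are the mean and SD of 3 libraries. ENG sits lowest in untreated EGFR-low cells and highest in the EGFR-low libraries of the vorinostat experiment, NOG is below the EGFR-high cells in every EGFR-low group, and the ID genes have higher means in the EGFR-low groups on the right.

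In untreated cells, sorting for low EGFR was accompanied by lower mRNA of ENG and NOG. ENG encodes endoglin, a co-receptor for BMP9 and BMP10 best known from endothelial cells. It was at 0.687, 0.305 and 1.16 FPKM in EGFR-low cells, at 4.89, 5.58 and 10.3 FPKM in EGFR-high cells and at 4.89, 3.62 and 1.8 FPKM in parental cells. Every EGFR-low library lay below every library of the other groups. Its EGFR-low mean was 9.66-fold below the EGFR-high mean (log2 fold change -2.18 ± 0.34, SE, n = 3 against 3, limma adjusted p = 0.00461). Of the EGFR-low libraries only replicate 3 reached 1 FPKM of ENG. It thus entered the test through the other groups, and its direction is partly set by the filter on low values.

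NOG encodes noggin, which binds BMP2, BMP4 and related ligands and blocks their access to receptors. It was at 3.10, 2.69 and 6.47 FPKM in EGFR-low cells, at 16.6, 18.2 and 17.6 FPKM in EGFR-high cells and at 12.2, 12.8 and 11.7 FPKM in parental cells. The parental libraries thus lay between the sorted groups, with no overlap. NOG had a log2 fold change of -1.94 ± 0.27 against EGFR-high cells (SE, n = 3 against 3, limma adjusted p = 0.00278) and -1.45 ± 0.27 against parental cells (limma adjusted p = 0.0224). The call against parental cells was lost with adjusted p = 0.137 without replicate 1 of EGFR-low, 0.0522 without replicate 2 of EGFR-low, 0.106 without replicate 1 of parental, 0.0668 without replicate 3 of parental and 0.0734 with only those 2 groups in the fit.

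ENG and NOG were the 2 members called lower among 8 tested in EGFR-low against EGFR-high cells, where 3.81% of all 11305 genes tested were called. The members were chosen with earlier results of these data known, so their count beside this share tests nothing. The median log2 fold change of the 8 was -0.19, beside -0.03 over all genes tested. Against parental cells NOG was the 1 member called of 8, with 1.6% of all genes called. In that comparison the value of ENG was -1.33 ± 0.34 (limma adjusted p = 0.0908), and after median-of-ratios scaling its adjusted p was 0.0403. No member of 8 was called between EGFR-high and parental cells, where 0.0708% of genes were called, 8 in all, and 1093 genes had an unadjusted p under 0.05. The largest value there was that of ID3, 1.44 ± 0.31 (limma adjusted p = 0.268), with 4.28, 7.78 and 11.4 FPKM in EGFR-high cells and 1.68, 2.79 and 1.83 FPKM in parental cells.

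ID1 and ACVR1 did not pass the test in untreated cells, though all EGFR-low libraries lay above all libraries of either other group. The exact two-sided permutation test gave p = 0.1 for both, the smallest that 3 libraries against 3 allow. How many of all genes separate in this way was not counted. Between EGFR-low and EGFR-high cells SMAD4 and SMAD5 were likewise higher, and SMAD1 lower, without overlap. ID1, the best known transcriptional target of BMP receptors, was at 27.7, 25.1 and 40.7 FPKM in EGFR-low cells, at 14.6, 16.2 and 17.4 FPKM in EGFR-high cells and at 18.8, 17.1 and 17.3 FPKM in parental cells. The log2 fold change against EGFR-high cells was 0.89 ± 0.24 (SE, n = 3 against 3, limma adjusted p = 0.0720). ACVR1, the receptor also named ALK2, was at 5.17, 4.06 and 4.97 FPKM in EGFR-low cells, at 2.82, 2.18 and 2.30 FPKM in EGFR-high cells and at 3.41, 2.31 and 3.31 FPKM in parental cells. The log2 fold change against EGFR-high cells was 0.74 ± 0.21 (limma adjusted p = 0.0893).

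Libraries with the same replicate number deviated together in these 2 groups, so a fit with a replicate block is given beside the main fit, which has none. No label gives such pairs, and the block was looked at because of the data. It also spans the parental libraries. Replicate 3 of parental cells did not deviate with replicate 3 of EGFR-low (correlation -0.092) or EGFR-high cells (-0.0023). With the replicate block in the fit, ID1 (limma adjusted p = 0.0238) and ACVR1 (limma adjusted p = 0.0235) were called higher, so that 4 members of 8 were called in place of 2, while the calls over all genes rose from 431 to 965. ID1 was also called after median-of-ratios scaling (adjusted p = 0.0403) and with no filter on low values (adjusted p = 0.0452).

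BMP2 and ID2 were not tested in the untreated experiment, since fewer than 3 of its libraries reached 1 FPKM. BMP2, a secreted ligand, was at 0.710, 1.11 and 1.40 FPKM in EGFR-low cells, at 0.0964, 0.0392 and 0.0550 FPKM in EGFR-high cells and at 0.105, 0.122 and 0.116 FPKM in parental cells. The mean in EGFR-low cells was 16.9-fold that of EGFR-high cells, without overlap, and the exact two-sided permutation test gave p = 0.1, the smallest that 3 libraries against 3 allow. In a fit with no filter on low values the log2 fold change was 0.95 ± 0.11 (limma adjusted p = 0.00327). ID2 did not exceed 0.143 FPKM in any of the 9 untreated libraries.

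The remaining members did not pass the test between the untreated sorted groups. BMP4, a ligand close to BMP2 in sequence, was at 14.3, 7.13 and 13.7 FPKM in EGFR-low cells and at 8.74, 7.54 and 8.57 FPKM in EGFR-high cells (log2 fold change 0.40 ± 0.33, limma adjusted p = 0.744). ID3 was at 3.28, 3.83 and 5.32 FPKM in EGFR-low cells and at 4.28, 7.78 and 11.4 FPKM in EGFR-high cells (-0.71 ± 0.31, limma adjusted p = 0.349). SMAD6 was at 2.35, 1.19 and 2.18 FPKM in EGFR-low cells, at 2.42, 2.52 and 4.40 FPKM in EGFR-high cells and at 1.22, 0.841 and 2.2 FPKM in parental cells. The EGFR-high libraries lay above those of both other groups, by 1.63-fold in mean over EGFR-low and 2.19-fold over parental cells. SMAD7 overlapped, from 1.93 to 5.99 FPKM over the 9 libraries. Their log2 fold changes of EGFR-low minus EGFR-high cells were -0.49 ± 0.28 (limma adjusted p = 0.526) and 0.10 ± 0.32 (limma adjusted p = 0.970).

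**Figure D2:**
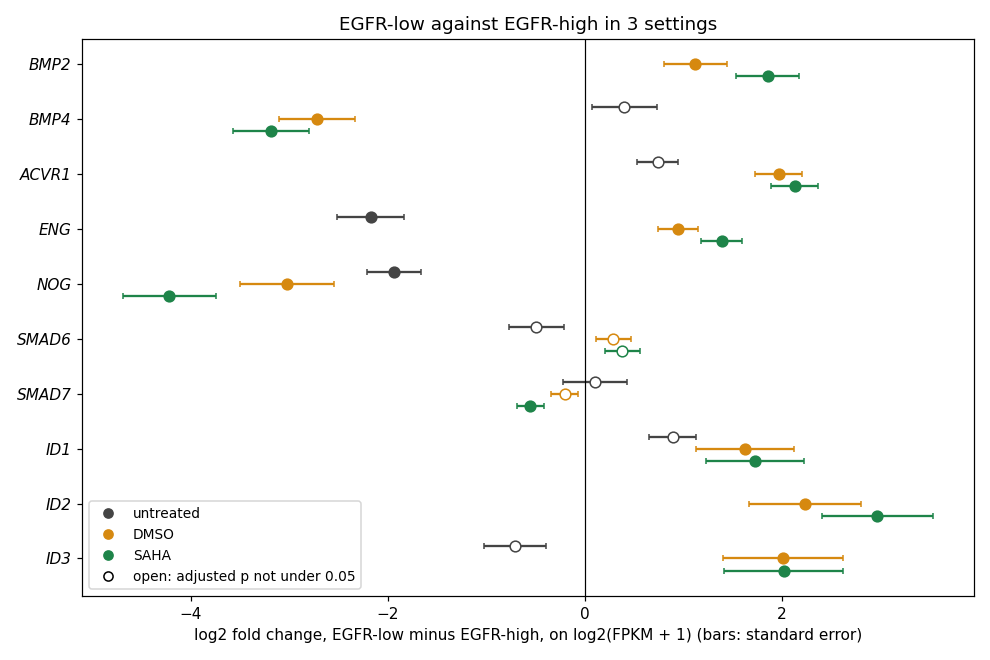
Log2 fold change of EGFR-low minus EGFR-high cells on log2(FPKM + 1) for each of the 10 genes (points, with the standard error as bars) in untreated, DMSO and SAHA cells; filled points have a limma adjusted p under 0.05, and BMP2 and ID2 have no untreated point. ENG is the gene whose called values stand on both sides of 0, at -2.18 in untreated cells and at 0.94 and 1.39 under DMSO and SAHA.

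In the vorinostat experiment most members differed between the libraries labelled EGFR-low and EGFR-high, and so did most genes. Under DMSO 8 of 10 members were called, where 51.8% of all 12236 genes tested were called, and under SAHA 9 of 10, where 59% were called. The counts of members are to be read against these shares. The members were chosen with earlier results of these data known, so the counts test nothing. Of the members called under DMSO, 6 were higher in EGFR-low cells (ACVR1, BMP2, ENG, ID1, ID2 and ID3) and 2 were lower (BMP4 and NOG). Under SAHA the same 8 were called in the same directions, and SMAD7 was called lower as well. BMP2 and ID2 passed the filter on low values through EGFR-low cells alone, and BMP4 and NOG through EGFR-high cells alone. The directions of these members, and with them the median of all members, are thus partly set by the filter. The median log2 fold change of the 10 members was 1.03 under DMSO and 1.56 under SAHA, beside 0.12 and 0.16 over all genes. Median-of-ratios scaling brought these medians over all genes to 0.01 and 0.00, a shift above 0.1. It changed the split of all calls from 3807 higher and 2527 lower to 3207 and 3190 under DMSO, and from 4427 and 2795 to 3650 and 3580 under SAHA. It left the number of members called at 8 and 9. DMSO and SAHA libraries come from the same experiment, and the EGFR-low and EGFR-high libraries of each treatment are separate.

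Of the ligands, BMP4 was nearly lost from the libraries labelled EGFR-low. It was at 1.89, 0.0868 and 0.0131 FPKM in EGFR-low DMSO and at 0.210, 0.0356 and 0.0587 FPKM in EGFR-low SAHA. In EGFR-high cells it was at 13.3, 6.85 and 7.08 FPKM under DMSO and at 12.2, 9.74 and 6.09 FPKM under SAHA. BMP4 thus had a log2 fold change of -2.72 ± 0.38 under DMSO (SE, n = 3 against 3, limma adjusted p = 0.000336) and -3.19 ± 0.38 under SAHA (limma adjusted p = 5.41e-05). The highest EGFR-low value is that of replicate 1 of EGFR-low DMSO, and without it and replicate 3 of EGFR-high DMSO the DMSO value was -3.34 ± 0.32.

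BMP2 had the opposite pattern from BMP4. It was at 1.49, 1.54 and 1.89 FPKM in EGFR-low DMSO and at 6.86, 2.18 and 2.09 FPKM in EGFR-low SAHA. The EGFR-high libraries had 0.0373, 0.0494 and 0.639 FPKM under DMSO and 0.375, 0.0833 and 0.0961 FPKM under SAHA. The groups did not overlap under either treatment, with log2 fold changes of 1.12 ± 0.32 (limma adjusted p = 0.0119) and 1.86 ± 0.32 (limma adjusted p = 0.000423). The 0.639 FPKM belongs to replicate 3 of EGFR-high DMSO, the library in which genes of the EGFR-low pattern were raised, and the DMSO value without it and replicate 1 of EGFR-low DMSO was 1.38 ± 0.38 (limma adjusted p = 0.0128). A pseudocount of 0.1 in place of 1 gave 2.81 under DMSO and 3.66 under SAHA, since the levels lie near 1 FPKM.

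ACVR1 was higher in every EGFR-low library than in any EGFR-high library. It was at 14.7, 16.4 and 17.2 FPKM in EGFR-low DMSO and at 14.2, 14.5 and 16.1 FPKM in EGFR-low SAHA, and at 2.35, 2.58 and 5.96 FPKM in EGFR-high DMSO and 2.97, 2.19 and 2.81 FPKM in EGFR-high SAHA. The mean was 4.44-fold higher under DMSO and 5.62-fold higher under SAHA, with log2 fold changes of 1.97 ± 0.23 (limma adjusted p = 0.000327) and 2.13 ± 0.23 (limma adjusted p = 4.31e-05). The 5.96 FPKM is that of replicate 3 of EGFR-high DMSO. Without it and replicate 1 of EGFR-low DMSO the DMSO value was 2.36 ± 0.16. The direction was that of the untreated values, where it did not pass the test without the replicate block.

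ENG went the other way from the untreated cells. It was at 13.9, 22 and 18.4 FPKM in EGFR-low DMSO and at 18.1, 21.4 and 19.0 FPKM in EGFR-low SAHA, against 6.56, 9.06 and 11.4 FPKM in EGFR-high DMSO and 5.87, 8.19 and 6.55 FPKM in EGFR-high SAHA. All 6 EGFR-low libraries lay above all 6 EGFR-high libraries. For ENG the log2 fold change was 0.94 ± 0.20 under DMSO (limma adjusted p = 0.00264), 1.28 ± 0.20 without the 2 DMSO libraries that stood apart, and 1.39 ± 0.20 under SAHA (limma adjusted p = 0.000155). The EGFR-high mean was 6.93 ± 2.96 FPKM (SD, n = 3) untreated and 8.99 ± 2.40 FPKM with DMSO, and the EGFR-low mean was 0.718 ± 0.429 FPKM untreated and 18.1 ± 4.03 FPKM with DMSO. The experiments were not tested against each other.

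Because ENG is an endothelial gene, 6 endothelial markers were read beside it. VWF, TIE1, TEK and EMCN did not exceed 0.0898 FPKM in any library. CDH5 was present throughout, at 2.2 to 8.30 FPKM. KDR, the main VEGF receptor, was at or near 0 in the untreated libraries (at most 0.0128 FPKM), at 2.33 to 3.79 FPKM in the EGFR-low libraries of the vorinostat experiment and at 0.881 FPKM in replicate 3 of EGFR-high DMSO. The 6 markers summed to 7.20 to 8.27 FPKM in EGFR-low DMSO, 5.20 to 6.60 in EGFR-low SAHA, 3.28 to 4.91 in EGFR-high DMSO and 2.58 to 8.21 in EGFR-high SAHA, and to 5.68 to 8.32 in the untreated EGFR-low libraries, where ENG was lowest. Their part in the ENG result was not tested. Of 6 fibroblast markers COL1A1 alone reached 1 FPKM, and the leukocyte markers PTPRC and CD3E did not reach it in any library. Both were highest in the 2 DMSO libraries that stood apart. CD3E and PTPRC were at 0.937 and 0.805 FPKM in replicate 1 of EGFR-low DMSO. In replicate 3 of EGFR-high DMSO they were at 0.290 and 0.200 FPKM, and COL1A2 was at 0.408 FPKM. Elsewhere CD3E did not exceed 0.0447 FPKM and PTPRC did not exceed 0.0524 FPKM. The part of these transcripts in the results was not tested. CD68, a macrophage marker, was at 14.5 to 39.3 FPKM in all 21 libraries. CD14, a monocyte marker, was at 0.739 to 3.92 FPKM in the EGFR-low libraries of the vorinostat experiment, at no more than 0.600 FPKM in the EGFR-high ones and at no more than 0.241 FPKM in untreated libraries. It was thus higher in the same libraries as ENG and the ID genes, and its part in these results was not tested.

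NOG was lower in every EGFR-low library than in any EGFR-high library. It was at 4.84, 0.166 and 0.186 FPKM in EGFR-low DMSO and at 0.116, 0.0421 and 0.0843 FPKM in EGFR-low SAHA. In EGFR-high cells it was at 15.7, 14.4 and 16.0 FPKM under DMSO and at 23.2, 17.1 and 17.5 FPKM under SAHA. The one EGFR-low library above 0.2 FPKM was replicate 1 of EGFR-low DMSO. The log2 fold change was -3.02 ± 0.47 under DMSO (limma adjusted p = 0.000460), -3.77 ± 0.18 without the 2 libraries that stood apart, and -4.22 ± 0.47 under SAHA (limma adjusted p = 4.40e-05). Among the members tested in all 3 comparisons of EGFR-low with EGFR-high cells, NOG was the one called in the same direction in each. BMP2 was not tested in untreated cells. Without the filter on low values it was called higher there too (0.95 ± 0.11, limma adjusted p = 0.00327). NOG reached 1 FPKM in 3 or more libraries of EGFR-high cells alone in this experiment, so its direction here is partly set by the filter.

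The inhibitory SMADs moved least. SMAD6 was at 2.81, 3.52 and 3.00 FPKM in EGFR-low DMSO and at 2.99, 1.70 and 2.51 FPKM in EGFR-high DMSO (log2 fold change 0.29 ± 0.17, limma adjusted p = 0.186), and under SAHA its value was 0.38 ± 0.17 (limma adjusted p = 0.0800). SMAD7 was at 4.10, 3.76 and 3.57 FPKM in EGFR-low DMSO and at 4.23, 4.44 and 4.99 FPKM in EGFR-high DMSO (-0.21 ± 0.14, limma adjusted p = 0.236). Under SAHA it was at 3.10, 3.67 and 3.53 FPKM in EGFR-low cells and at 6.42, 4.52 and 5.71 FPKM in EGFR-high cells, and was called lower (-0.55 ± 0.14, limma adjusted p = 0.00504). Without the 2 DMSO libraries that stood apart, the DMSO values were 0.37 ± 0.22 for SMAD6 and -0.19 ± 0.17 for SMAD7.

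The ID genes were higher in EGFR-low cells under both treatments. ID1 was the most abundant member, at 55.1, 209.9 and 189 FPKM in EGFR-low DMSO and at 85.1, 186 and 180.0 FPKM in EGFR-low SAHA. In EGFR-high cells it was at 26.7, 44.4 and 60.7 FPKM under DMSO and at 29.2, 45.3 and 56.9 FPKM under SAHA. The groups overlapped under DMSO, where replicate 1 of EGFR-low lay below replicate 3 of EGFR-high, and not under SAHA. For ID1 the log2 fold change was 1.62 ± 0.50 under DMSO (limma adjusted p = 0.0174) and 1.72 ± 0.50 under SAHA (limma adjusted p = 0.0108). The DMSO call was lost with adjusted p = 0.0757 without replicate 1 of EGFR-high, 0.0772 without replicate 2 of EGFR-low and 0.0726 without replicate 3 of EGFR-low. Without the 2 libraries that stood apart it was 2.5 ± 0.41 (adjusted p = 0.000676).

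ID3 followed ID1. It was at 10.2, 44.2 and 34.6 FPKM in EGFR-low DMSO and at 18.1, 38.1 and 36.6 FPKM in EGFR-low SAHA, against 5.8, 2.27 and 11.3 FPKM in EGFR-high DMSO and 13.1, 5.52 and 3.59 FPKM in EGFR-high SAHA. The groups overlapped under DMSO alone. For ID3 the log2 fold change was 2.01 ± 0.61 under DMSO (limma adjusted p = 0.0159) and 2.02 ± 0.61 under SAHA (limma adjusted p = 0.0132). The DMSO call was lost with adjusted p = 0.0738 without replicate 2 of EGFR-high, 0.0705 without replicate 2 of EGFR-low and 0.0600 without replicate 3 of EGFR-low, and the SAHA call with 0.0553 without replicate 3 of EGFR-high. Without the 2 libraries that stood apart the DMSO value was 3.09 ± 0.53 (adjusted p = 0.000954).

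ID2, near 0 in every untreated library, was present in the EGFR-low libraries of the vorinostat experiment. It was at 1.65, 12.8 and 8.53 FPKM in EGFR-low DMSO and at 4.70, 11.5 and 8.59 FPKM in EGFR-low SAHA. In EGFR-high cells it was at 0.0543, 0.0803 and 1.94 FPKM under DMSO, and under SAHA at 0.373 and 0.0351 FPKM in replicates 1 and 3 and listed at 0 in replicate 2. The 1.94 FPKM is that of replicate 3 of EGFR-high DMSO and exceeded replicate 1 of EGFR-low DMSO. For ID2 the log2 fold change was 2.23 ± 0.56 under DMSO (limma adjusted p = 0.00632), 3.43 ± 0.33 without the 2 libraries that stood apart, and 2.97 ± 0.56 under SAHA (limma adjusted p = 0.000835). With a pseudocount of 0.1 these were 3.92 with all DMSO libraries and 5.4 under SAHA.

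The ID genes also varied together among the EGFR-low libraries. In EGFR-low SAHA, replicate 1 held 46.5% of the mean of replicates 2 and 3 for ID1, 46.9% for ID2, 48.3% for ID3 and 50.6% for ID4, the fourth gene of the family. The same share was 89.6% for ENG, 92.8% for ACVR1, 91.9% for SMAD6, 86.0% for SMAD7 and 321% for BMP2. HEY1, a target outside the ID family, stood at 151%. Replicate 1 of EGFR-low SAHA held 0.332% of the EGFR-high level of the 80 genes. It held 82.7% of the EGFR-low level of the 75 genes, against 97.6 and 102% in replicates 2 and 3. In EGFR-low DMSO, replicate 1 held 27.7% for ID1, 15.5% for ID2, 25.8% for ID3 and 31.2% for ID4. The 75 genes, ID4 among them, had a median of 71.1% of the EGFR-low SAHA level in the same library. They were chosen on replicates 2 and 3 of the SAHA groups, so they are no independent measure, and the part of this library's difference in the ID values was not tested. ENG stood at 69.0% there, HEY1 at 68.2%, ACVR1 at 87.1%, BMP2 at 86.9%, SMAD6 at 86.3% and SMAD7 at 112%. With 3 libraries a group these shares are a description without a test. Lower values in replicate 1 were not confined to the ID genes. NKX2-1 was at 24.1, 48.7 and 43.8 FPKM in EGFR-low SAHA, by replicate, and at 25.6, 51.1 and 37.9 FPKM in EGFR-low DMSO. NAPSA, another lung marker, was at 0.207, 1.56 and 2.08 FPKM in EGFR-low SAHA and at 0.524, 2.76 and 3.41 FPKM in EGFR-low DMSO.

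**Figure D3:**
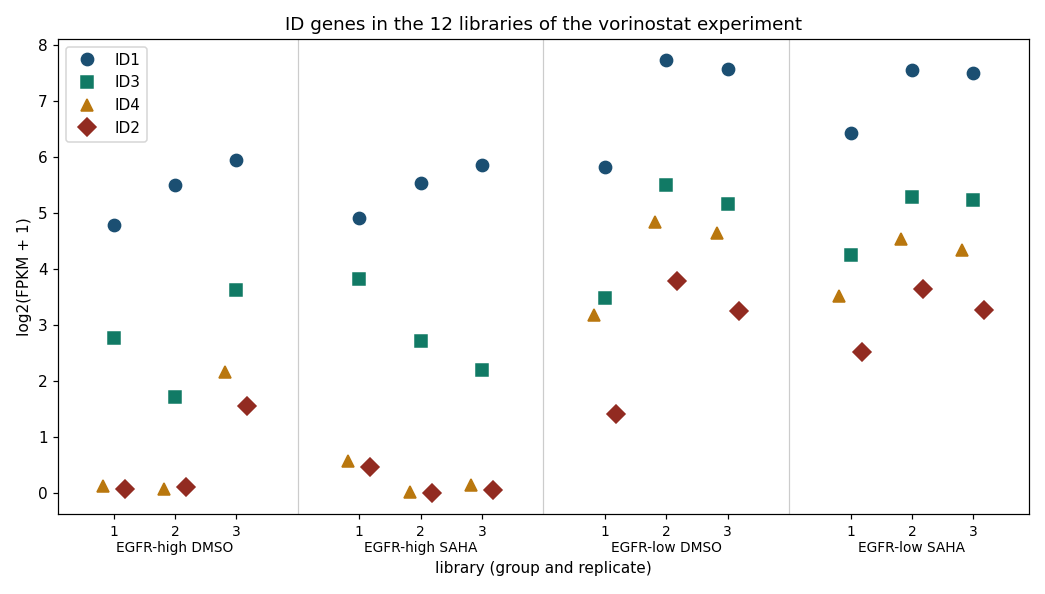
Level of ID1, ID2, ID3 and ID4, as log2(FPKM + 1), in each of the 12 libraries of the vorinostat experiment, by group and replicate. All 4 genes are lower in replicate 1 than in replicates 2 and 3 of both EGFR-low groups, and ID2 and ID4 stand out in replicate 3 of EGFR-high DMSO.

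SAHA itself changed no member past the test. In EGFR-low cells 0 of 10 members were called against DMSO, where 0% of the 12236 genes were called by limma and 115 had an unadjusted p under 0.05. In EGFR-high cells 0 of 10 were called, where 0% of genes were called and 409 had an unadjusted p under 0.05. The response of EGFR-low cells differed from that of EGFR-high cells for 0 of 10 members, where 0% of genes were called and 215 had an unadjusted p under 0.05. Without a filter on low values, 1 gene was called in EGFR-low cells and 1 for the difference in response, and neither was a member. The log2 fold changes of the members ran from -0.89 to 0.69 in EGFR-low cells and from -0.41 to 0.30 in EGFR-high cells.

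The largest of these were NOG and BMP2 in EGFR-low cells, at -0.89 ± 0.47 and 0.69 ± 0.32 (limma adjusted p = 1.00 for both). The NOG value rests on replicate 1 of EGFR-low DMSO, and without it and replicate 3 of EGFR-high DMSO it was -0.12 ± 0.16. Without the same libraries the EGFR-low values also changed sign for ID1 (0.12 to -0.49), ID2 (0.32 to -0.38), ID3 (0.21 to -0.40), ENG (0.12 to -0.049) and BMP4 (-0.42 to 0.066), so no direction is read from them. In EGFR-high cells ACVR1 turned from -0.26 to 0.072, BMP2 from -0.042 to 0.17 and BMP4 from 0.050 to -0.082. The largest in EGFR-high cells was ID2, at -0.41 ± 0.56 (limma adjusted p = 0.940), which turned to 0.075 without replicate 3 of EGFR-high DMSO. The largest difference in response was that of NOG, -1.19 ± 0.67 (limma adjusted p = 0.999). A p that misses the threshold does not show that the levels were alike.

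The other genes of the BMP pathway were taken from a list of 50, of which 23 were tested in the untreated experiment and 27 in the vorinostat experiment. In untreated EGFR-low against EGFR-high cells 1 was called higher and 1 lower. BMPR1B, a type I receptor, was at 2.83, 2.17 and 1.38 FPKM in EGFR-low cells and at 0.680, 0.134 and 0.382 FPKM in EGFR-high cells (log2 fold change 1.15 ± 0.23, SE, n = 3 against 3, limma adjusted p = 0.0164). That call was lost without replicate 2 or replicate 3 of EGFR-high or replicate 1 of EGFR-low, with adjusted p between 0.0688 and 0.0883. CHRDL1, a secreted antagonist of BMP4, was at 0.533, 0.271 and 0.326 FPKM in EGFR-low cells and at 11.2, 9.66 and 10.5 FPKM in EGFR-high cells (-3.06 ± 0.21, limma adjusted p = 2.04e-05). BMPR1B reached 1 FPKM in the untreated EGFR-low libraries alone, and CHRDL1 in the EGFR-high and parental ones alone. The direction of both is thus partly set by the filter.

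Against parental cells the same genes were the 2 called, BMPR1B at 1.11 ± 0.23 (limma adjusted p = 0.0367) and CHRDL1 at -2.09 ± 0.21 (limma adjusted p = 0.000684). The BMPR1B call was lost in 5 of 6 fits that leave out 1 library of the groups, with adjusted p up to 0.188. Between EGFR-high and parental cells 0 of 23 were called. NOG and CHRDL1 were thus the 2 antagonists called of 6 tested, both lower in EGFR-low cells. BMPR1A, BMPR2, SMAD1 and SMAD5, the other receptors and receptor-activated SMADs of the pathway core, were not called between untreated groups. Their log2 fold changes of EGFR-low minus EGFR-high cells were 0.24, 0.12, -0.66 and 0.33, with standard errors of 0.19, 0.26, 0.21 and 0.21. ID4 did not reach 1 FPKM in the untreated libraries. It was at 0.620, 0.602 and 0.636 FPKM in EGFR-low cells and at 0.183, 0.0863 and 0.0707 FPKM in EGFR-high cells, without overlap.

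In the vorinostat experiment, 10 of the 27 were called higher and 6 lower in EGFR-low DMSO, and 10 higher and 7 lower in EGFR-low SAHA. These are 59.3% and 63.0% of the genes tested, near the 51.8% and 59% of all genes called. Their median log2 fold changes were -0.01 and 0.03. By role with the members included, all 7 target genes tested were called higher under both treatments, and of 6 antagonists 4 were called lower and none higher. The targets ID2, ID4 and MSX2 reached 1 FPKM in 3 or more libraries of EGFR-low cells alone, and the antagonists NOG and CHRDL1 in EGFR-high cells alone, so these entered the test only through the side where they were high and their direction is partly set by the filter. The other 4 targets, ID1, ID3, HEY1 and MSX1, and the other 4 antagonists reached it in both, and MSX1 and MSX2 are named here after their values were seen. The median of the targets was 1.97 under DMSO and 2.02 under SAHA, and that of the antagonists -0.98 and -1.63. Each of the 5 ligands likewise reached 1 FPKM in 3 or more libraries of 1 side alone, and among them 2 were called higher and 2 lower under DMSO, and 3 and 2 under SAHA. Of the 7 SMADs and their regulators tested, 2 were called higher and none lower under DMSO.

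ID4 had the largest log2 fold change of the list on log2(FPKM + 1), though not the largest ratio of means under SAHA. There ID4 was 88.4-fold higher and TCF4 189.8-fold lower. The SAHA means in EGFR-low and EGFR-high cells were 0 and 4.22 FPKM for CHRDL1, 0.0170 and 1.93 FPKM for BMP6 and 1.09 and 0.0111 FPKM for MSX2. ID4 was at 7.99, 27.5 and 23.8 FPKM in EGFR-low DMSO and at 10.5, 22.2 and 19.3 FPKM in EGFR-low SAHA, against 0.0853, 0.0473 and 3.46 FPKM in EGFR-high DMSO and at most 0.475 FPKM in EGFR-high SAHA. The log2 fold change was 3.43 ± 0.56 (limma adjusted p = 0.000558) and 3.90 ± 0.56 (limma adjusted p = 0.000132), and ID4 is 1 of the 75 genes with the EGFR-low pattern described above. Without the 2 DMSO libraries that stood apart its DMSO value was 4.64 ± 0.31. TCF4, an E protein to which ID proteins bind, was at 1.91, 0.0967 and 0.00475 FPKM in EGFR-low DMSO and at 7.18, 5.46 and 5.35 FPKM in EGFR-high DMSO (-2.24 ± 0.32, limma adjusted p = 0.000358), and under SAHA its value was -2.89 ± 0.32. Without the 2 DMSO libraries that stood apart the DMSO value was -2.79 ± 0.18. TCF4 reached 1 FPKM in 3 or more libraries of EGFR-high cells alone, so its direction is partly set by the filter. In untreated EGFR-low cells TCF4 was at 12.7, 8.56 and 11.1 FPKM.

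HEY1, a repressor that BMP and Notch signals induce, was called higher under DMSO (1.97 ± 0.30, limma adjusted p = 0.000416), with 7.91, 11.9 and 11.2 FPKM against 1.21, 1.12 and 4.03 FPKM. The 4.03 FPKM is that of replicate 3 of EGFR-high DMSO. Without it and replicate 1 of EGFR-low DMSO the value was 2.54 ± 0.20. CHRDL1 was listed at 0 in 5 of the 6 EGFR-low libraries and at 0.743 FPKM in replicate 1 of EGFR-low DMSO, against 2.42 to 6.61 FPKM in EGFR-high cells. BMPR1B was higher by 0.89 ± 0.16 under DMSO (limma adjusted p = 0.000871) and 1.08 ± 0.16 under SAHA (limma adjusted p = 0.000148). Without the 2 DMSO libraries that stood apart the DMSO value was 1.00 ± 0.16. BMPR1B reached 1 FPKM in EGFR-low libraries alone, here and in untreated cells, so its direction is partly set by the filter in both experiments. SMAD5 was called higher under both treatments (0.56 ± 0.15 and 0.40 ± 0.15), and BMPR2 under DMSO alone (0.43 ± 0.17, limma adjusted p = 0.0479). Without the 2 DMSO libraries that stood apart, the DMSO values were 0.71 ± 0.18 for SMAD5 and 0.60 ± 0.20 for BMPR2. The SMAD5 call under SAHA was lost without replicate 1 or 2 of EGFR-high or replicate 2 or 3 of EGFR-low, with adjusted p of 0.0833 to 0.123, and the BMPR2 call in 4 of the 6 fits without 1 library. BMPR1A and SMAD1 were not called.

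**Figure D4:**
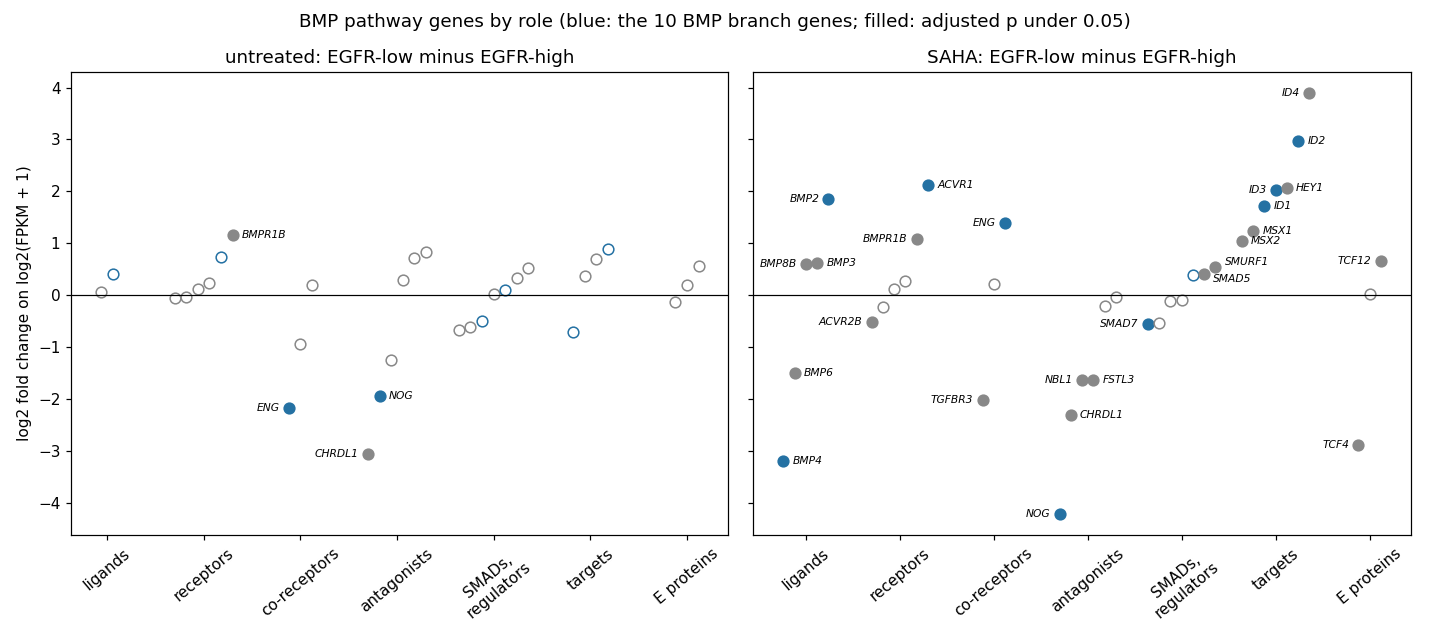
Log2 fold change of EGFR-low minus EGFR-high cells, on log2(FPKM + 1), for the BMP pathway genes tested, by role, in untreated (left) and SAHA (right) cells; blue points are the 10 BMP branch genes, grey points other pathway genes, and filled, named points have a limma adjusted p under 0.05. On the right 7 targets lie above 0 and 4 of 6 antagonists are called below 0, where 59% of all genes are called. There ID2, ID4, MSX2, NOG, CHRDL1, BMPR1B, TCF4, TGFBR3 and every ligand tested passed the filter on low values through 1 side alone. On the left ENG, NOG, CHRDL1 and BMPR1B are the genes called.

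For each member with enough expression in both experiments, the genes most like it were found among 4882 other genes by the root mean square difference between the 7 group means of log2(FPKM + 1), centred within each experiment. ENG was nearest to ARRB1 (0.107) and CTSV (0.177). ARRB1, a β-arrestin, was at 1.79 to 2.72 FPKM in untreated EGFR-low cells and at 13.2 to 16.8 FPKM in untreated EGFR-high cells. It was at 28.8 to 42.1 FPKM in EGFR-low DMSO and at 13 to 19.0 FPKM in EGFR-high DMSO. NOG was nearest to MCAM (0.116) and NCCRP1 (0.122), and ID1 to HPSE (0.0614) and CREB3L2 (0.0815). ACVR1 was nearest to MBOAT1 (0.0792) and PLSCR1 (0.114), and BMP4 to C1orf106 (0.0820) and GALNT16 (0.1).

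ID3 was nearest to HSPB1 (0.186) and TSPAN4 (0.195). The patterns of SMAD6 and SMAD7 were flat, with a standard deviation of 0.268 and 0.203 over the 7 centred means. They were nearest to RPL13 (0.0568) and CENPB (0.0739), and to MYH9 (0.104) and ERGIC1 (0.113). These values describe 7 group means and carry no test.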

How the data were processed

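RNA of 21 PC-9 libraries was sequenced after poly(A) selection, and strand was not given in the sources used here. The deposited values are FPKM per gene, which the authors made with STAR 2.5.1b and Cufflinks 2.2.1 on hg19, per the submitters' processing notes. The notes also name DESeq2 1.10.1, which needs counts and was not used here. FPKM summed to 467897 to 592942 per library, absolute depth is unknown, and relative depth, read from the steps between low values, spanned 1.0 to 2.3 within an experiment.

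Values were taken as log2(FPKM + 1) and fitted with limma 3.58.1 in R 4.3.3, with a mean per group and a variance trend, separately for the 2 experiments. A gene entered the test where 3 or more libraries of the experiment reached 1 FPKM. Fold changes understate the change of low genes. P-values were adjusted by Benjamini-Hochberg over all genes tested, and an adjusted p under 0.05 was called. The fit was tested on simulated data. For single genes a two-sided exact permutation test was run on the library values. Tables and plots used Python 3.11.15, numpy 2.4.6, pandas 2.3.3 and matplotlib 3.10.9.

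Members and gene lists were chosen with earlier results of these data known. The text names every member, EGFR, in each comparison the 3 other pathway genes with the largest absolute log2 fold change among those called, BMPR1A, BMPR1B, BMPR2, SMAD1, SMAD5 and ID4 where tested, and the 2 genes most like each member. Replicates are independent experiments per the study's methods. Same-numbered libraries deviated together in untreated EGFR-low and EGFR-high cells (correlations 0.343, 0.730 and 0.689), in SAHA EGFR-low and EGFR-high cells (0.353, 0.351 and 0.163) and in EGFR-low cells with SAHA and DMSO (0.267, 0.302 and 0.329). No label gives pairs, so the main fits hold no replicate block, and the block is an alternative fit. Alternatives were a pseudocount of 0.1, no filter, a filter of 5 FPKM, median-of-ratios scaling, the replicate block, a fit of only the groups compared and each library left out. Leaving out both DMSO libraries that stood apart was added after seeing the data. Promoter sequences are RefSeq GRCh38.p14, matched by symbol for 8 of 10 members. BMP2 and NOG were not matched. One marker gene is not reported here.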

Additional observations from a re-analysis of the deposited data

Results flagged for a closer look

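ENG, the endoglin co-receptor, stood out because every EGFR-low library lay below every EGFR-high library in untreated cells and above it in the vorinostat experiment. The log2 fold change of EGFR-low minus EGFR-high was -2.18 in untreated cells, 0.94 under DMSO and 1.39 under SAHA (n = 3 against 3 each). SMAD6, an inhibitory SMAD, had log2 fold changes of -0.49 in untreated cells and 0.38 under SAHA, neither of which passed the test. The differences between the experiments were not tested for either gene, because their tables were made separately. Treatment and time, 72 h against harvest at 24 h, also differ between the experiments. The libraries labelled EGFR-low differed in NKX2-1 too, at most 0.0690 FPKM untreated and 24.1 to 51.1 FPKM in the vorinostat experiment. These differences cannot be told apart.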

How the results depend on the processing

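Over 951 alternative values of 74 member fold changes, 877 kept direction and side of the threshold, 12 lost the call, 5 gained it and 57 changed sign. Of the sign changes, 20 were in SAHA against DMSO in EGFR-high cells, 12 in the same comparison in EGFR-low cells, 23 in the difference between these responses and 2 in untreated EGFR-low against EGFR-high cells, all in values that did not pass the test. Without both DMSO libraries that stood apart, SAHA against DMSO in EGFR-low cells turned to 0.066 for BMP4, -0.049 for ENG, -0.49 for ID1, -0.38 for ID2 and -0.40 for ID3. In EGFR-high cells it turned to 0.072 for ACVR1, -0.082 for BMP4, 0.075 for ID2 and 0.17 for BMP2. The difference between the responses turned to -0.24 for ACVR1, 0.15 for BMP4, -0.77 for ID1, -0.46 for ID2 and -1.07 for ID3. A pseudocount of 0.1 turned BMP2 in EGFR-high cells to 0.058 and the response difference of ID3 to -0.027, and median-of-ratios scaling turned the latter to -0.039. Without 1 library, the range in EGFR-low cells was -0.69 to 0.066 for BMP4, -0.049 to 0.26 for ENG, -0.49 to 0.49 for ID1, -0.38 to 0.81 for ID2 and -0.40 to 0.61 for ID3. In EGFR-high cells it was -0.46 to 0.072 for ACVR1, -0.15 to 0.33 for BMP4, -0.29 to 0.29 for ID1, -0.66 to 0.075 for ID2, -0.29 to 0.67 for ID3, -0.16 to 0.17 for BMP2 and -0.11 to 0.19 for SMAD6. For the response difference it was -0.17 to 0.35 for ACVR1, -0.75 to 0.017 for BMP4, -0.51 to 0.47 for ID1, -0.61 to 0.50 for ID3 and -0.051 to 0.25 for SMAD6. SMAD7 in untreated EGFR-low against EGFR-high cells ran from -0.24 to 0.39, with -0.056 without EGFR-high replicate 1 and -0.24 without EGFR-low replicate 3. Members called in that comparison numbered 4 with no filter, 1 with a filter of 5 FPKM, 4 with the replicate block and 2 to 2 without 1 library, while all genes called numbered 660, 206, 965 and 205 to 337. Against parental cells they numbered 2 with no filter, 2 with median-of-ratios scaling, 0 with only the groups compared and 0 to 1 without 1 library. All genes called there numbered 331 with no filter, 82 with a filter of 5 FPKM, 525 with the block, 107 with only the groups compared and 67 to 252 without 1 library. Between EGFR-high and parental cells they numbered 15 with no filter, 3 with the 5 FPKM filter, 2 with only the groups compared and 2 to 8 without 1 library. Without 1 library, 6 to 8 members were called under DMSO and 8 to 9 under SAHA. A pseudocount of 0.1 gave BMP4 -4.65 and NOG -4.42 under DMSO, and BMP4 -5.59 and NOG -6.75 under SAHA. The replicate block changed no other member's call where same-numbered libraries deviated together. The cause of these changes was not tested. Unknown absolute depth limits what can be said of genes near 0 FPKM.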
